A study of Mus musculus with 9 samples.

Results

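This report is about 30 genes of the mature adipocyte: secreted adipokines, adiponectin receptors, the insulin response, and the uncoupling, brown and beige adipocyte genes. They were chosen by gene symbol from a list, and where a gene had several probe sets, the brightest on average was used. Of the 30 genes, 26 were measured, out of 18193 genes in the series. Cfd, Adrb1, Adrb3 and Ucp2 were not analysed here.

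RNA came from NIH-CAR cells, a clonal line of NIH-3T3 mouse embryonic fibroblasts that stably carries the coxsackie-adenovirus receptor CARΔ1, at passage 12. One group was transduced with AdHA-PPARg2, an adenovirus that encodes HA-tagged full-length PPARγ2, and then given 1 µM rosiglitazone. The second was transduced with AdHA-PPARgCDE, which encodes the HA-tagged receptor without its A/B-domain, and given the same dose. The third, AdEmpty, received the virus with no insert and then the vehicle DMSO. Cells of these groups are called PPARγ2, PPARγCDE and empty-vector cells. Each group had 3 arrays, transduction lasted 2 h in all groups, and all cells came from 1 clonal line. The time from rosiglitazone or vehicle to harvest is not given here. No group had receptor without agonist or agonist without receptor, so these cannot be told apart here. The title of the study asks how the A/B-domain affects transactivation gene by gene.

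PPARγ2 is the nuclear receptor that drives adipocyte differentiation. With its partner RXR it binds response elements made of repeats of the hexamer AGGTCA, and rosiglitazone is a synthetic agonist that activates it. Mature white adipocytes store triglyceride, take up glucose through an insulin-regulated transporter and secrete hormones such as adiponectin and leptin. Brown and beige adipocytes also burn fuel for heat through the mitochondrial uncoupling protein UCP1. A fibroblast makes few of these products until it differentiates.

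Levels are log2 values of the deposited table, differences are on the same log2 scale, and adjusted p-values are from limma with Benjamini-Hochberg adjustment over all 18193 genes, called at 0.05. Array medians over all genes ran from 7.34 to 7.52. The arrays numbered 3 stood apart in each group: their 18S ribosomal RNA control probe sets averaged 7.59 (PPARγ2), 8.06 (PPARγCDE) and 8.67 (empty vector), against 10.51 to 12.44 on the other 6. Pparg averaged 11.25 ± 0.84 in PPARγ2 cells, 11.34 ± 0.63 in PPARγCDE cells and 7.06 ± 0.10 in empty-vector cells (SD, n = 3 each), and whether its probe set reads the transgene, the cell's own transcript or both was not tested. All 8 fibroblast markers lay between 10.59 and 14.12, while the 6 leukocyte and 4 endothelial markers lay between 5.57 and 7.03. Of 6 muscle and 4 epithelial markers 3 and 1 lay above 7.13, a low level explained further on, and limma called 0 of these markers in any comparison, with or without the replicate number as a block. At an unadjusted p under 0.05 there was 1, a muscle marker between the receptors, beside 1.52% of all genes in that comparison. Nothing in the labels says that the arrays of a group came from separate cultures, so the p-values may cover technical spread alone.

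Of the mature adipocyte genes 1 was called in the fit without a block. Irs2, an adaptor of the insulin receptor, was the 1 of 26 genes that rose in PPARγ2 cells, against 0.500% of all genes called higher. Of the 26, 0 fell, against 0.154% called lower. In PPARγCDE cells 0 of 26 were called in either direction, against 0.159% higher and 0.0110% lower over all genes. With the replicate number as a block, the paired form of this comparison, Irs2 was called higher, 1 of 26 beside 0.660% of all genes. Between the receptors 0 of 26 were called, against 0% in either direction. At an unadjusted p under 0.05 limma had 3 of the 26 in PPARγ2 cells, 1 in PPARγCDE cells and 2 between the receptors, beside 6.19%, 3.79% and 1.52% of all genes. The median difference over the 26 genes was 0.09 in PPARγ2 cells, -0.01 in PPARγCDE cells and -0.10 between the receptors, beside 0.00, -0.03 and -0.01 over all genes. Both receptor groups were set against the same empty-vector arrays. In RNA from whole cultures, a change in few cells and a small change in every cell cannot be told apart.

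**Figure D1:**
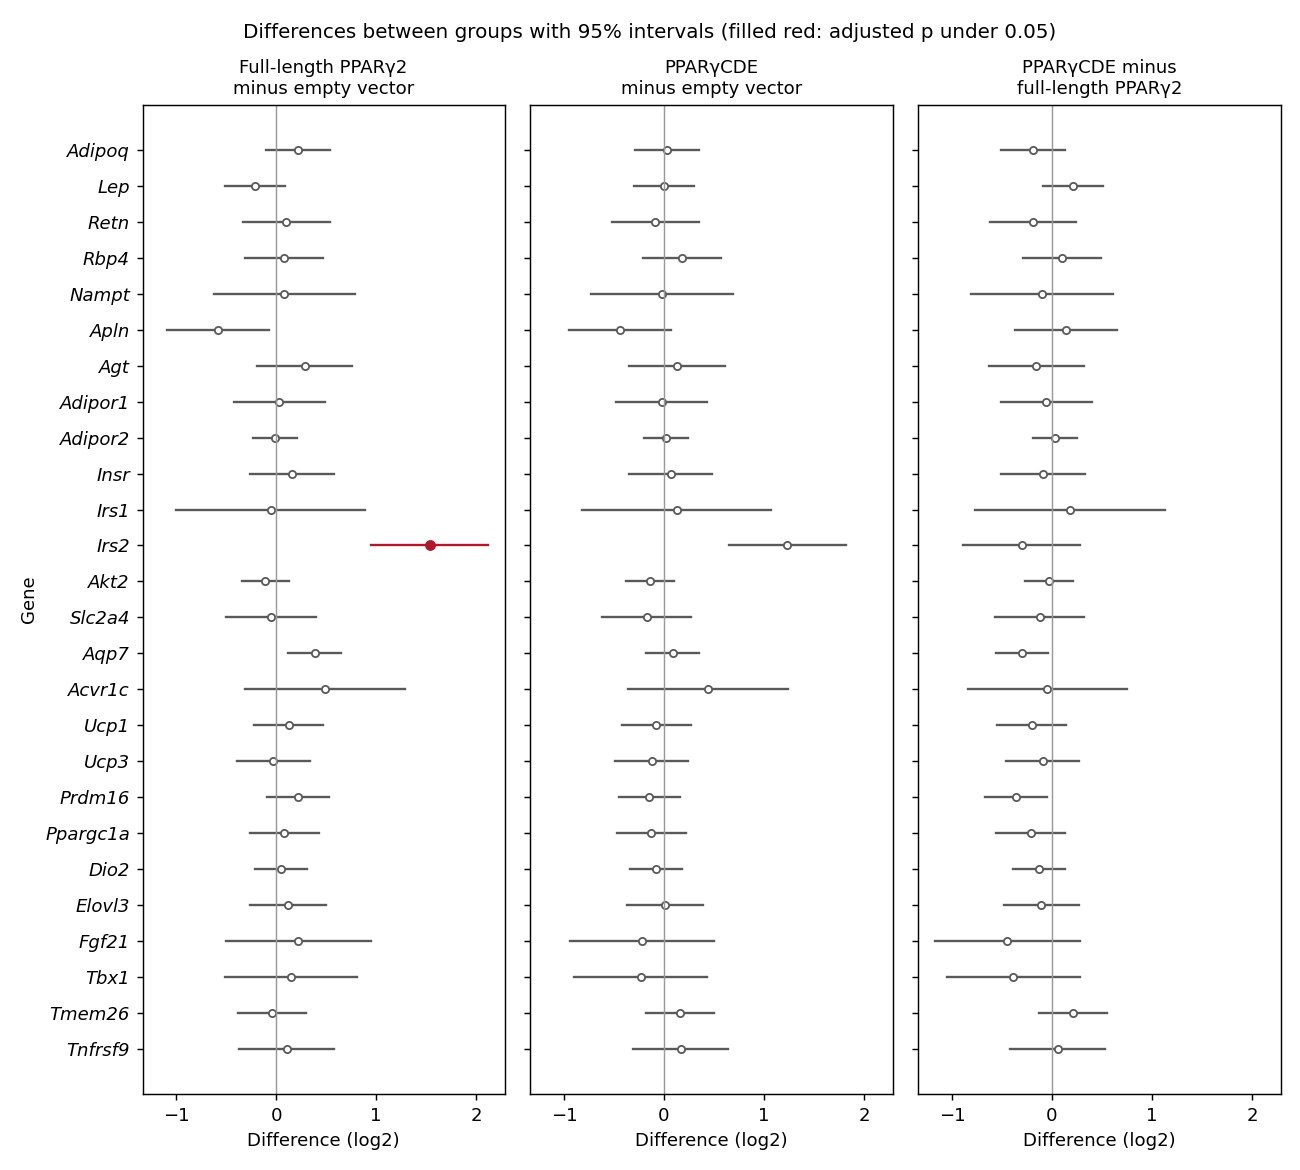
Differences between groups (log2 scale, horizontal axis) for each of the 26 genes (vertical axis), as points with 95% intervals from limma without the block. Irs2 in PPARγ2 cells, at 1.54, is the 1 filled red point (adjusted p under 0.05), and most other intervals span 0.

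The other intervals show how large a difference in array values the fit without the block leaves room for. They do not use the pairs. With the block the SE was smaller for Irs1 (0.12 against 0.42) and Nampt (0.09 against 0.31), for example. It was larger for Fgf21 (0.37 against 0.32), Tbx1 (0.32 against 0.29) and Tnfrsf9 (0.23 against 0.21). For genes with low values, how far such intervals bound a change in transcript was not tested. The 95% interval lay within 1 log2 unit of 0 on both sides for 22 of the 26 genes in PPARγ2 cells, 23 in PPARγCDE cells and 23 between the receptors. Over all genes that share was 93.6%, 93.9% and 94.5%. The exceptions in PPARγ2 cells were Irs2, Apln, Irs1 and Acvr1c.

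The Irs2 protein docks on activated insulin and IGF1 receptors and passes the signal to phosphoinositide 3-kinase. Irs2 read 8.72, 8.90 and 8.08 on the 3 PPARγ2 arrays, 8.43, 8.62 and 7.75 on the 3 PPARγCDE arrays, and 7.17, 7.02 and 6.90 on the 3 empty-vector arrays. Every receptor array lay above every empty-vector array, and the 2 receptor groups overlapped. In PPARγ2 cells Irs2 was higher by 1.54 (SE 0.26, 95% interval 0.95 to 2.12, adjusted p = 0.0333), which is 2.90-fold.

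In PPARγCDE cells Irs2 was higher by 1.23 (SE 0.26, 95% interval 0.65 to 1.82), 2.35-fold, at an adjusted p of 0.235. Equal replicate numbers were treated as pairs in this comparison, and with the number as a block the adjusted p was 0.0247, a call for 1 of 26 genes beside 0.660% of all genes called higher and 0.253% called lower. Between the receptors Irs2 was at -0.30 (SE 0.26, 95% interval -0.89 to 0.28, adjusted p = 1.00), and the array pairs with equal numbers differed by -0.30, -0.28 and -0.33. With the block the SE of that difference was 0.15, its unadjusted p 0.0865 and its adjusted p 0.980. Neither fit called Irs2 between the receptors. The interval from the fit without the block reaches a loss of 0.89 and a gain of 0.28 without the A/B-domain. It does not use the pairs, and the interval with the block is not given here.

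The call of Irs2 in PPARγ2 cells rests on several arrays. Its adjusted p was 0.138 and 0.159 without PPARγ2 replicates 1 and 2, 0.111, 0.159 and 0.125 without empty-vector replicates 1, 2 and 3, and 0.0661 without PPARγCDE replicate 1. The difference itself ran from 1.37 to 1.78 over 17 alternative fits. Without the 3 arrays numbered 3 it was 1.72 (adjusted p = 0.00433), and in PPARγCDE cells it was then 1.43 (adjusted p = 0.0138). Irs2 has 1 probe set among those with a single gene symbol, so no other of these bears on its value.

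**Figure D2:**
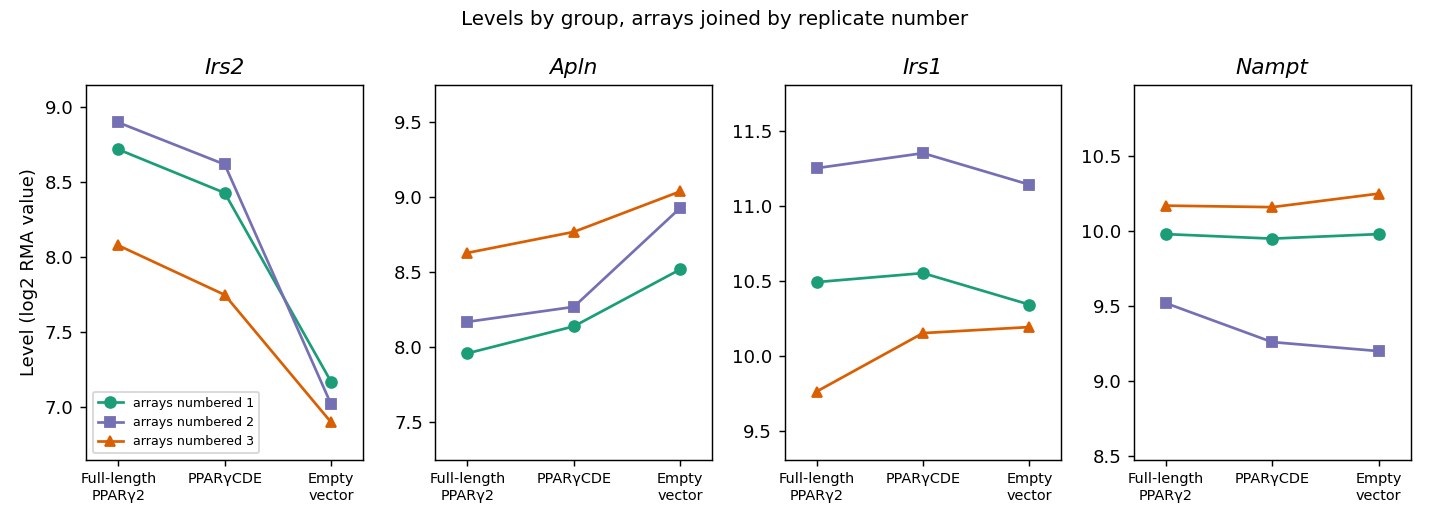
Levels (log2 RMA values, vertical axis) of Irs2, Apln, Irs1 and Nampt in the 3 groups, with the arrays of equal replicate number joined by a line. Irs2 is higher in both receptor groups at each number. Irs1 and Nampt follow the number, with Irs1 highest and Nampt lowest on the arrays numbered 2.

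The bases before the start of Irs2 are shown beside those of Adipoq and Ucp1, the best-known white and brown adipocyte genes among the 26, neither of which was called. Each line gives the 250 bases upstream of the RefSeq start in GRCm38.p6, read 5′ to 3′ on the gene's strand. Irs2 is at chr8:11008930-11009179 (minus strand), Adipoq at chr16:23146286-23146535 (plus strand) and Ucp1 at chr8:83290098-83290347 (plus strand). Capitals mark the PPAR hexamer AGGTCA or its complement TGACCT, and the E-box CACGTG.
Irs2: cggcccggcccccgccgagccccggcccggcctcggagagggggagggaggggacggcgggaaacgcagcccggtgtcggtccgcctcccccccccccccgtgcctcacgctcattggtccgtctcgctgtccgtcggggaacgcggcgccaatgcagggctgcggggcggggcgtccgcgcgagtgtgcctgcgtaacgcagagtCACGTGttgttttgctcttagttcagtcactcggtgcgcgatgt
Adipoq: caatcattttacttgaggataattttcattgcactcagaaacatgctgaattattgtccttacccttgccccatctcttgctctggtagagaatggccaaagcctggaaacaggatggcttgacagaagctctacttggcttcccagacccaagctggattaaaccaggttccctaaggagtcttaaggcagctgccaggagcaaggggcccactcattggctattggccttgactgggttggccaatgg
Ucp1: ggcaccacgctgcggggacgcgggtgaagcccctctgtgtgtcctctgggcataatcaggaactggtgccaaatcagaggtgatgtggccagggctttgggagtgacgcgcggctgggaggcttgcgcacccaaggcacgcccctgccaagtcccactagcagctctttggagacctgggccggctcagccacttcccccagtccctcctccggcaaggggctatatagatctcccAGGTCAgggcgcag
The Irs2 window holds 1 E-box, which starts 44 bases before the gene, and no AGGTCA. The Ucp1 window holds 1 AGGTCA, 14 bases before the start, and the Adipoq window holds none of these motifs. On either strand, AGGTCA is in 14.0% of all 32851 upstream windows and CACGTG in 6.02%. The spaced repeat, AGGTCA then N then AGGTCA, of which each part also counts as AGGTCA, is in 0.0335% of windows and in 0 of the 32 windows of the 23 measured genes that have one. AGGTCA was found upstream of Aqp7, Nampt, Ucp1 and Ucp3, and CACGTG upstream of Fgf21, Irs1 and Irs2. These are matches of letters in a short window. The G and C content was 72.8% for Irs2, 48.8% for Adipoq and 64.8% for Ucp1, with a median of 52.4% over all windows.

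The other genes of the insulin response were not called. Insr, the insulin receptor, averaged 7.51 ± 0.37 in PPARγ2 cells, 7.41 ± 0.17 in PPARγCDE cells and 7.35 ± 0.15 in empty-vector cells. Akt2, the kinase isoform that acts in insulin-stimulated glucose uptake, averaged 9.20 ± 0.09, 9.17 ± 0.09 and 9.30 ± 0.07 in the same order of groups. Its difference from empty vector was -0.11 (95% interval -0.34 to 0.13) in PPARγ2 cells and -0.14 (-0.38 to 0.10) in PPARγCDE cells.

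Irs1, the other main insulin receptor substrate, varied more with the replicate number than with the group. It read 10.49, 11.25 and 9.76 on PPARγ2 arrays 1, 2 and 3, 10.55, 11.35 and 10.15 on PPARγCDE arrays, and 10.34, 11.14 and 10.19 on empty-vector arrays. Array 2 was the highest and array 3 the lowest in each group. Of its sum of squares over the 9 arrays, 93.5% lay between the numbers and 2.1% between the groups. Its differences were -0.05 in PPARγ2 cells, 0.13 in PPARγCDE cells and 0.18 between the receptors (SE 0.42 each), none of them called. With the block each SE was 0.12.

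Slc2a4 encodes GLUT4, the insulin-regulated glucose transporter of fat and muscle. It read 6.85, 6.77 and 6.84 in PPARγ2 cells, 6.85, 6.43 and 6.80 in PPARγCDE cells, and 6.56, 6.71 and 7.33 in empty-vector cells. The groups overlapped, and the highest value was on an empty-vector array. The differences from empty vector were -0.05 (95% interval -0.50 to 0.40) and -0.17 (-0.62 to 0.27) in PPARγ2 and PPARγCDE cells, both at an adjusted p of 1.00.

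To place low values, the levels of 74 odorant, vomeronasal and taste receptor genes were used, since fibroblasts are not known to use them. Their means over the 9 arrays had a median of 5.82 and a 95th percentile of 7.13, here called the chemosensory level. Probe sets differ in brightness, so this level places a gene only roughly and does not rank genes against each other. Of the 26 genes, 10 had a mean above it: Adipor1, Adipor2, Akt2, Apln, Insr, Irs1, Irs2, Nampt, Retn and Tnfrsf9. The other 16 were at or below it, among them Adipoq, Lep, Slc2a4, Ucp1, Prdm16 and Ppargc1a. Retn, with a mean of 7.14, lay just above and Rbp4, with 6.98, just below. The 3 probe sets of Insr had levels from 5.72 to 7.42, of which the highest was used. A gene at this level could still rise: Fabp4 was at 13.42 ± 0.26 in PPARγ2 cells and at 5.82 ± 0.37 in empty-vector cells.

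**Figure D3:**
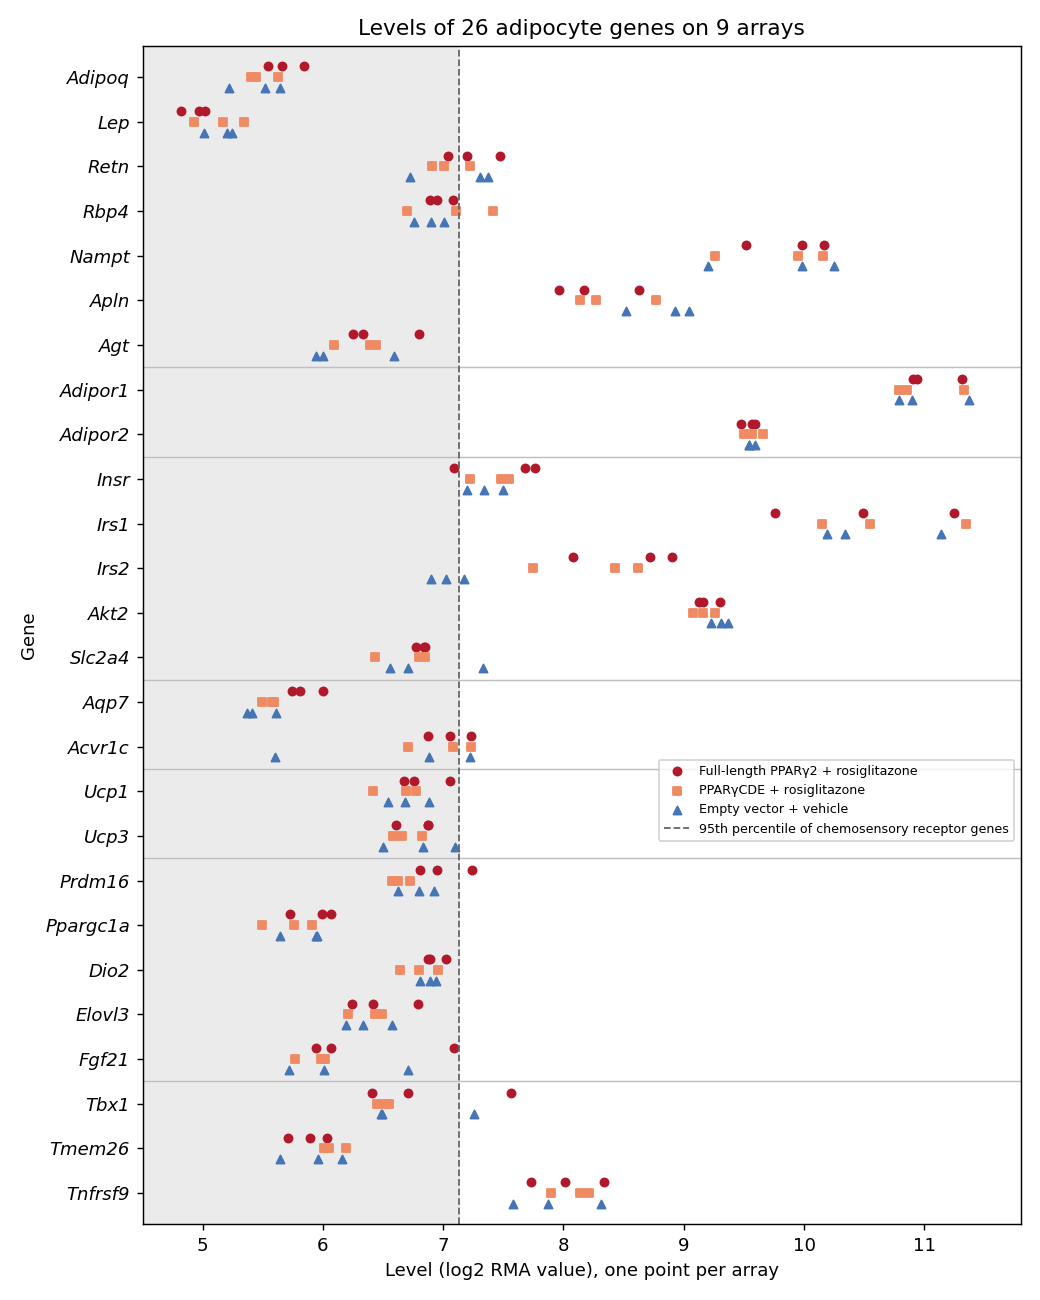
Levels (log2 RMA values, horizontal axis) of the 26 genes on each of the 9 arrays, 1 point per array, grouped by role with grey lines between roles. The dashed line is the chemosensory level of 7.13 and the grey area lies below it. The empty-vector points of Irs2 lie to the left of all its receptor points, while the groups of nearly all other genes overlap.

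Among the adipokines, adiponectin and leptin were at low values in all groups. Adipoq, which encodes the insulin-sensitising hormone adiponectin, read 5.66, 5.54 and 5.84 in PPARγ2 cells, 5.63, 5.40 and 5.44 in PPARγCDE cells, and 5.64, 5.52 and 5.22 in empty-vector cells. Its difference from empty vector was 0.22 (SE 0.14, 95% interval -0.10 to 0.54) in PPARγ2 cells and 0.03 (-0.29 to 0.35) in PPARγCDE cells. The groups overlapped, and the upper end of both intervals lies below 1 log2 unit.

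Lep, the gene of leptin, which reports fat stores to the brain, read 4.82, 5.02 and 4.97 in PPARγ2 cells, 5.17, 4.93 and 5.34 in PPARγCDE cells, and 5.20, 5.24 and 5.01 in empty-vector cells. Its differences from empty vector were -0.21 (95% interval -0.51 to 0.09) in PPARγ2 cells and 0.00 (-0.30 to 0.30) in PPARγCDE cells. Retn, the gene of resistin, averaged 7.24 ± 0.22 in PPARγ2 cells, 7.05 ± 0.16 in PPARγCDE cells and 7.13 ± 0.36 in empty-vector cells. Retn, Rbp4, the gene of a retinol carrier, and Agt, the gene of angiotensinogen, had differences from empty vector of 0.10, 0.08 and 0.29 in PPARγ2 cells and -0.09, 0.18 and 0.13 in PPARγCDE cells. None was called, and the groups overlapped in each.

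Apln encodes apelin, a peptide hormone that adipocytes secrete. It read 7.96, 8.17 and 8.63 in PPARγ2 cells, 8.14, 8.27 and 8.77 in PPARγCDE cells, and 8.52, 8.93 and 9.04 in empty-vector cells. At each replicate number the empty-vector array was the highest, although the groups overlapped. Its difference was -0.58 (SE 0.23, 95% interval -1.09 to -0.07, unadjusted p = 0.0299, adjusted p = 0.644) in PPARγ2 cells. In PPARγCDE cells it was -0.44 (SE 0.23, 95% interval -0.95 to 0.07, adjusted p = 1.00), or 0.134 as the adjusted p with the block. Neither comparison called Apln. With the replicate number as a block, Apln was the 1 of 26 genes called lower in PPARγ2 cells (adjusted p = 0.029) and Irs2 the 1 called higher, beside 1.74% and 1.89% of all genes, but the numbers were not treated as pairs there.

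Nampt, an enzyme of NAD synthesis that is also secreted, followed the replicate number. It read 9.98, 9.52 and 10.17 in PPARγ2 cells, 9.95, 9.26 and 10.16 in PPARγCDE cells, and 9.98, 9.20 and 10.25 in empty-vector cells. Array 3 was the highest and array 2 the lowest in each group, and 95% of its sum of squares lay between the numbers. Its 3 probe sets gave differences from 0.08 to 0.29 in PPARγ2 cells and from -0.02 to 0.15 in PPARγCDE cells.

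The adiponectin receptors had similar means in the 3 groups, and neither was called. Adipor1 read 10.94, 10.91 and 11.31 in PPARγ2 cells, 10.86, 10.79 and 11.33 in PPARγCDE cells, and 10.90, 10.79 and 11.37 in empty-vector cells. Adipor2 averaged 9.54 ± 0.06 in PPARγ2 cells, 9.58 ± 0.08 in PPARγCDE cells and 9.55 ± 0.03 in empty-vector cells. The intervals against empty vector ran from -0.42 to 0.49 and from -0.48 to 0.43 for Adipor1 in PPARγ2 and PPARγCDE cells, and from -0.23 to 0.21 and from -0.20 to 0.24 for Adipor2. Adipor1 also followed the number, which held 97.2% of its sum of squares, with array 3 the highest in each group. The SE of its differences was 0.20, or 0.07 with the block.

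In 5 of the 26 genes, Adipor1, Apln, Insr, Irs1 and Nampt, the order of arrays 1, 2 and 3 was the same in all 3 groups, which is 19.2% of them beside 15.3% of all genes. The median share of the sum of squares between numbers was 22.6% over the 26 genes and 32.3% over all genes. The median share between groups was 18.7% and 14.1%. For Irs2 these shares were 13.7% between numbers and 82.7% between groups. Apln was split, with 48.2% between numbers and 47.5% between groups.

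Aqp7, the glycerol channel of adipocytes, and Acvr1c, a receptor of the activin family that restrains lipolysis in adipocytes, were below the chemosensory level. Aqp7 read 5.74, 6.0 and 5.81 in PPARγ2 cells, 5.49, 5.59 and 5.58 in PPARγCDE cells, and 5.61, 5.41 and 5.37 in empty-vector cells. The PPARγ2 arrays lay above all arrays of the other groups. Its difference was 0.39 (SE 0.12, adjusted p = 0.356) against empty vector and -0.30 (SE 0.12, adjusted p = 1.00) for PPARγCDE against PPARγ2 cells. Neither was called, and its second probe set gave -0.01 and -0.07. Irs2 and Aqp7 were the 2 of 26 genes whose PPARγ2 arrays all lay above empty vector, beside 4.52% of all genes, and 0 lay wholly below, beside 4.86%. In PPARγCDE cells Irs2 was the 1 gene wholly above, beside 3.86%, and 0 lay wholly below, beside 4.03%.

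Acvr1c was uneven. It read 6.87, 7.23 and 7.06 in PPARγ2 cells, 7.08, 6.71 and 7.23 in PPARγCDE cells, and 7.22, 5.60 and 6.88 in empty-vector cells. Empty-vector array 2 was the lowest of the 9, and the difference in PPARγ2 cells was 0.49 (95% interval -0.31 to 1.29) with it and 0.00 without it. Over its 3 probe sets that difference ran from -0.13 to 0.49.

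The thermogenic genes gave no call. The 10 measured genes, Ucp1, Ucp3, Prdm16, Ppargc1a, Dio2, Elovl3, Fgf21, Tbx1, Tmem26 and Tnfrsf9, had differences from -0.04 to 0.22 in PPARγ2 cells and from -0.23 to 0.17 in PPARγCDE cells. By limma 0 of the 10 were called in any of the 3 comparisons, with or without the block. At an unadjusted p under 0.05 there were 0 in PPARγ2 cells, 0 in PPARγCDE cells and 1 between the receptors, beside the 6.19%, 3.79% and 1.52% of all genes. The highest upper bound in PPARγ2 cells was 0.95, for Fgf21, so all 10 intervals ended below 1 log2 unit. In PPARγCDE cells the highest was 0.64, for Tnfrsf9.

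Ucp1, the proton carrier that makes heat in brown fat, read 6.67, 6.76 and 7.06 in PPARγ2 cells, 6.69, 6.42 and 6.77 in PPARγCDE cells, and 6.88, 6.68 and 6.54 in empty-vector cells. Its differences from empty vector were 0.13 (95% interval -0.22 to 0.47) and -0.08 (-0.42 to 0.27). Ucp3, an uncoupling protein of muscle and brown fat, was at -0.03 and -0.12. The groups overlapped in both genes.

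Prdm16 encodes a coregulator that commits cells to the brown fate. It read 6.81, 6.95 and 7.24 in PPARγ2 cells, 6.62, 6.57 and 6.72 in PPARγCDE cells, and 6.92, 6.80 and 6.62 in empty-vector cells. The PPARγCDE arrays lay below all PPARγ2 arrays, at a difference of -0.36 (SE 0.14, 95% interval -0.67 to -0.05, unadjusted p = 0.0265, adjusted p = 1.00). Without PPARγ2 replicate 3 the limma difference was -0.24. Its 4 probe sets gave -0.36 to -0.19 in that comparison. Prdm16 and Aqp7 were the 2 of 26 genes whose PPARγCDE arrays all lay below the PPARγ2 arrays, beside 3.14% of all genes, and 0 lay wholly above, beside 2.02%.

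Ppargc1a, the coactivator PGC-1α of mitochondrial genes, read 5.99, 6.07 and 5.73 in PPARγ2 cells, 5.49, 5.76 and 5.91 in PPARγCDE cells, and 5.64, 5.94 and 5.95 in empty-vector cells. The groups overlapped, and its differences from empty vector were 0.08 (95% interval -0.26 to 0.43) and -0.13 (-0.47 to 0.22). Over its 5 probe sets the difference ran from -0.17 to 0.08 in PPARγ2 cells and from -0.35 to 0.11 in PPARγCDE cells. Dio2, the deiodinase that activates thyroid hormone in brown fat, and Elovl3, a fatty acid elongase of brown fat, were at 0.05 and 0.12 in PPARγ2 cells and at -0.08 and 0.01 in PPARγCDE cells.

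Fgf21, the gene of a metabolic hormone, and Tbx1, a beige marker that encodes a transcription factor, were each high on the same pair of arrays. Fgf21 read 5.94, 6.07 and 7.09 in PPARγ2 cells, 5.77, 5.98 and 6.02 in PPARγCDE cells, and 6.71, 6.01 and 5.72 in empty-vector cells. Tbx1 read 6.41, 6.71 and 7.56 in PPARγ2 cells, 6.55, 6.45 and 6.52 in PPARγCDE cells, and 7.26, 6.48 and 6.49 in empty-vector cells. The high values were on PPARγ2 array 3 and empty-vector array 1.

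Those 2 arrays held the 2 highest values of Agt, Ucp1, Elovl3, Fgf21, Tbx1 and Tnfrsf9, 6 of the 26 genes. The same was true of 17.1% of all genes and of 30.6% of the 7994 genes at or below the chemosensory level. The 2 arrays also had the highest medians over all genes, 7.50 and 7.52, and the highest medians over those 7994 genes, 6.35 and 6.31, against 6.03 to 6.23 on the other 7. Their part in the differences of single genes was not tested.

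Between the receptors, 13 of the 16 genes at or below the chemosensory level had a lower mean in PPARγCDE cells, with a median difference of -0.14. Over all 7994 genes at or below that level the median was -0.06 and 64.6% were lower, so the low genes as a whole read lower in that group. After quantile normalization the medians were -0.08 over the 16 genes, with 12 lower, and 0.00 over the 7994. Without PPARγ2 replicate 3 they were -0.07, with 11 lower, and 0.00. Without PPARγCDE replicate 2 the median over the 16 was -0.05, with 11 lower. None of the 16 was called in any of these fits.

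Tmem26 and Tnfrsf9, surface proteins of beige adipocytes, had differences of -0.04 and 0.11 in PPARγ2 cells and 0.16 and 0.17 in PPARγCDE cells. Tnfrsf9, which encodes the costimulatory receptor CD137 also made by activated leukocytes, averaged 8.03 ± 0.31 in PPARγ2 cells, 8.09 ± 0.16 in PPARγCDE cells and 7.92 ± 0.37 in empty-vector cells. By its brightest probe set it was the 1 thermogenic gene above the chemosensory level, and its 3 probe sets had levels from 5.51 to 8.01.

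Different probe sets of a gene were compared where there was more than 1. Of the 26 genes 14 had several and 12 had 1. The widest spread was that of Tmem26, from -0.64 to 0.21 between the receptors, and of Acvr1c, from -0.19 to 0.44 in PPARγCDE cells. No probe set of the 26 genes other than that of Irs2 exceeded 1 log2 unit in any comparison.

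Related genes outside the 26 were counted from 3 further lists, of which no gene was called between the receptors. Of 21 other secreted adipocyte factors Angptl4, which encodes a secreted inhibitor of lipoprotein lipase, rose with either receptor. It averaged 13.39 ± 0.25 in PPARγ2 cells, 13.20 ± 0.23 in PPARγCDE cells and 9.80 ± 0.92 in empty-vector cells, at differences of 3.59 (adjusted p = 0.00325) and 3.40 (adjusted p = 0.00737). The other 20 were not called, and the median difference over the 21 was 0.02 and -0.05. Over all genes 0.500% were called higher in PPARγ2 cells and 0.159% in PPARγCDE cells. With the block, in the pairs of PPARγCDE and empty-vector arrays, Il6, the gene of a cytokine, was also called higher (1.04, adjusted p = 0.0118). The block called 0.660% of all genes higher there. Without the block Il6 was not called, and its mean over the 9 arrays was at or below the chemosensory level. In PPARγ2 cells, where the numbers were not treated as pairs, the block also called Metrnl higher and Ccl2, the gene of a monocyte chemokine, lower. Of all genes it called 1.89% higher and 1.74% lower in these cells. Metrnl was at 0.85 (adjusted p = 0.119, or 0.00551 with the block) and Ccl2 at -1.06 (adjusted p = 0.942, or 0.00654 with the block). Metrnl averaged 10.36 ± 0.26 in PPARγ2 cells, 9.26 ± 0.20 in PPARγCDE cells and 9.50 ± 0.30 in empty-vector cells. Ccl2 averaged 9.01 ± 0.87, 9.54 ± 0.82 and 10.07 ± 0.73 in the same order.

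Of 30 other insulin signalling genes limma called 0 in any comparison. At an unadjusted p under 0.05 there were 4 in PPARγ2 cells and 3 in PPARγCDE cells, beside 6.19% and 3.79% of all genes. Their median difference was -0.03 and -0.02. The range was -0.92 to 0.59 in PPARγ2 cells and -0.60 to 0.71 in PPARγCDE cells. Pik3cb, a catalytic subunit of phosphoinositide 3-kinase, was at -0.92 in PPARγ2 cells (adjusted p = 0.063, or 0.0341 with the block). Rhoq, a small GTPase, was at -0.81 there (adjusted p = 0.368, or 0.00654 with the block). These were the 2 genes of the list that the block called in PPARγ2 cells, beside 1.74% of all genes called lower. In PPARγCDE cells it called 0, beside 0.660% of all genes called higher and 0.253% called lower.

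Of 29 other brown or beige adipocyte genes limma called 0. At an unadjusted p under 0.05 there was 1 for either receptor, beside 6.19% (PPARγ2) and 3.79% (PPARγCDE) of all genes. That gene was Pdk4, a kinase that holds back pyruvate dehydrogenase. Pdk4 averaged 10.80 ± 0.41 in PPARγ2 cells, 11.19 ± 0.36 in PPARγCDE cells and 8.68 ± 0.84 in empty-vector cells, at differences of 2.12 (adjusted p = 0.0518) and 2.51 (adjusted p = 0.0571). In the pairs of PPARγCDE and empty-vector arrays the block gave Pdk4 an adjusted p of 0.00544, a call. In PPARγ2 cells, where the numbers were not treated as pairs, the block gave 0.00357. The block called 0.660% of all genes higher in PPARγCDE cells and 1.89% in PPARγ2 cells. The median over the 29 genes was 0.01 and -0.07.

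Some markers of the white adipocyte moved on the same arrays. Of 11 measured markers Fabp4 (7.60), Lpl (3.86), Cidec (2.51) and Pparg (4.20), the gene the viruses deliver, rose in PPARγ2 cells, and Fabp4 (6.54), Lpl (2.54) and Pparg (4.28) in PPARγCDE cells. Cd36 (-0.11 and 0.04), Cebpa (-0.03 and 0.02), Pck1 (-0.07 and -0.15) and Adig (0.20 and -0.41) were not called in PPARγ2 or PPARγCDE cells, nor was Cidec (0.55) in PPARγCDE cells. Gpd1 (0.02 and -0.27) and Lipe (0.25 and -0.02) were not called either. The share of all genes called higher was 0.500% in PPARγ2 cells and 0.159% in PPARγCDE cells. Pnpla2, which encodes a triglyceride lipase, was at 0.83 in PPARγ2 cells (adjusted p = 0.0518, or 0.00914 with the block) and at 0.53 in PPARγCDE cells (adjusted p = 0.648, or 0.0861 with the block). The summed level of the 11 markers ran from 90.7 to 92.9 in PPARγ2 cells, from 84.2 to 88.3 in PPARγCDE cells and from 71.0 to 74.6 in empty-vector cells. That sum includes Pparg, which the viruses deliver, and the other called markers, so it does not describe the uncalled ones. How far the shift in the sum goes with that of Irs2 was not tested.

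**Figure D4:**
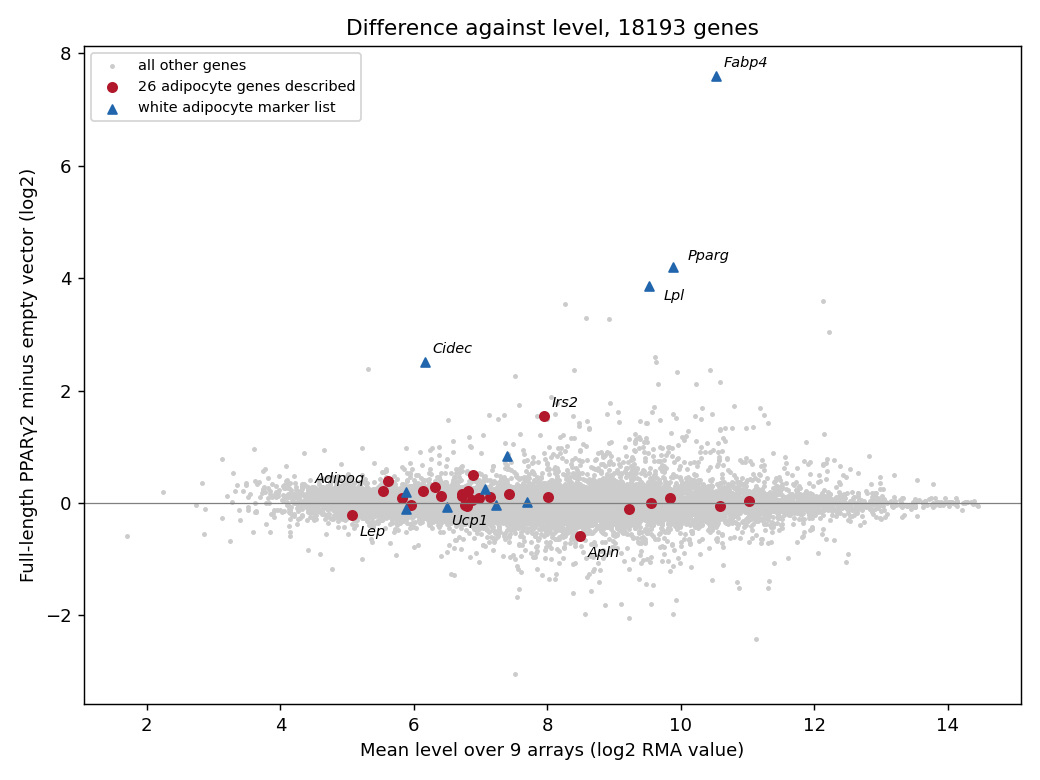
Difference between PPARγ2 and empty-vector cells (log2 scale, vertical axis) against the mean level over the 9 arrays (log2 RMA value, horizontal axis), 1 point per gene. Irs2 is the 1 of the 26 genes (red circles) above 1 log2 unit. The white adipocyte markers Fabp4, Lpl, Cidec and Pparg (blue triangles) lie above 2.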

How the data were processed

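Per the submitters' processing notes, the authors made the deposited values from Affymetrix arrays with RMA in the affy package of R 2.5.0. The deposited log2 values of 9 arrays (3 groups of 3) were used as given; the base was read from the grid of the values, of which at least 99.858% fitted base 2. Of 45101 probe sets, 34945 had 1 gene symbol in the platform annotation. These gave 18193 genes, each by the probe set with the highest mean. limma 3.58.1 in R 4.3.3 fitted the 3 groups over all genes with no filter, and called an adjusted p under 0.05. The fit was tested on simulated data, drawn independently for each array with no effect of the replicate number. That test therefore cannot show how the fit behaves when arrays share such an effect. Arrays have no read depth, so their number limits the precision.

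Replicate numbers come from the sample titles. Deviations of equal-numbered arrays correlated at 0.570, 0.520 and 0.708 for PPARγCDE and empty-vector arrays and at 0.297, 0.507 and 0.531 between the receptors, so these were treated as pairs. For PPARγ2 and empty-vector arrays they were -0.121, 0.631 and 0.255, so these were not. The block was 1 fit over all 9 arrays, so its values for all 3 comparisons come from the same fit. The labels do not say what the numbers stand for, so whether these 2 groups share them was not settled. Of the 26 genes, those called or at least 1 log2 unit apart were given in full, those above the chemosensory level with group means or array values, and textbook genes always. Of the further lists, called genes were given. Array values of Apln, Nampt, Irs1, Adipor1, Aqp7, Acvr1c, Fgf21 and Tbx1, and the uncalled Pdk4, Pik3cb, Rhoq, Il6, Metrnl, Ccl2, Cd36, Cebpa, Pck1, Adig, Gpd1, Lipe and Pnpla2, were chosen for the text after their values were seen. The members and lists were chosen with earlier results of these data known.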

Additional observations from a re-analysis of the deposited data

How the results depend on the processing

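The 26 genes were refitted under 17 alternatives: the replicate number as a block, array medians subtracted, quantile normalization, probe sets averaged per gene, a filter on low genes, an intensity trend with a robust prior, the compared arrays alone, each array left out in turn, and the 3 arrays numbered 3 left out together. The filter left 9 of the 26 genes, so the other 17 had 16 alternatives. No difference that was called changed sign. With the replicate block, 1 gene (Apln, adjusted p = 0.029) was called lower in PPARγ2 cells, where the numbers were not treated as pairs, and 1 (Irs2) higher in PPARγCDE cells; the block changed no other call among the 26 genes. Without the 3 arrays numbered 3, 1 gene (Irs2) was called higher in PPARγCDE cells. With each array left out in turn, 0 to 1 genes were called higher in PPARγ2 cells. Over all genes the block gave 344 higher and 317 lower in PPARγ2 cells, against 91 and 28 without it, and 120 and 46 in PPARγCDE cells, against 29 and 2. Over the other alternatives the counts ran from 44 to 133 higher and 13 to 49 lower in PPARγ2 cells, from 17 to 49 higher and 0 to 6 lower in PPARγCDE cells, and from 0 to 1 lower between the receptors. Of the 26 genes, 8 lay above the 99th percentile of the chemosensory genes (7.63), 8 above the median of all genes (7.44) and 10 above the level used.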
